A study of Mus musculus with 5 samples.

Results

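The genes described here encode, in the nucleus, the subunits of mitochondrial respiratory complexes II, III and IV, of ATP synthase (complex V) and of cytochrome c. They were chosen by gene symbol alone: every symbol beginning with Uqcr, Cox4i, Cox5, Cox6, Cox7, Cox8 or Atp5, together with Sdha, Sdhb, Sdhc, Sdhd, Cyc1 and Cycs. This rule found 49 genes among the 27179 in the table, after 2 pseudogenes were left out. They were measured by RNA sequencing in ear skin of B6 mice, with 3 control libraries and 2 libraries of Cd1d -/- mice (KO), which lack the lipid-presenting partner of natural killer T cells. The sample titles give the controls as Cd1d +/-, whereas their genotype tag reads WT, so they are called controls here. No treatment, age, sex or time is given for either group, and all 5 RNA samples were extracted with a column kit for fibrous tissue and made into libraries by the same company. Separate mice for the libraries are not stated, so p-values measure only the spread between these 5 libraries.

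In the inner mitochondrial membrane, complex II passes electrons from succinate to ubiquinone, complex III passes them on to cytochrome c, and complex IV gives them to oxygen. Complexes III and IV pump protons as they do so, and complex V uses the return of these protons to make ATP. Each complex has catalytic subunits and smaller accessory subunits, and in complex IV several accessory subunits have a common form and a form found in heart and skeletal muscle. Skin as a whole holds epidermis, dermis, fat, hair follicles and, in the ear, thin muscle, all of which contain mitochondria.

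The control libraries held 79160005, 73692964 and 32353957 counts (replicates 1, 2 and 3), and the KO libraries 54596686 and 45270805 (replicates 1 and 2). The 49 genes took 0.895% to 1.24% of these reads. Cd1d1, the deleted gene, was below every control in both KO libraries, with counts of 557, 757 and 182 in the controls and 61 and 48 in KO (log2 fold change -2.67, SE 0.29, edgeR adjusted p = 0.0152). KO replicate 1 stood apart in hair genes: 7 hair shaft and root sheath genes summed to 606 CPM (counts scaled by library size and a TMM normalization factor) there and to 11.4 to 21.5 CPM in the other 4 libraries. Levels are given in CPM, and fold changes are log2 values from edgeR, positive where KO was higher. With bulk tissue, fewer cells of a type and less RNA per cell cannot be told apart.

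Of the 49 genes, 44 had enough reads to be tested. Among these, 20 rose in KO skin and 0 fell (edgeR quasi-likelihood test, adjusted p under 0.05 over 17472 genes). That is 45.5% of the tested members, whereas 2.71% of all tested genes rose and 1.05% fell. The fold change was positive for 44 of 44 members, against 47.6% of all tested genes. The median log2 fold change of the members was 0.53, and that of all tested genes was -0.02. In 40 of the 44 both KO libraries were above every control library, which held for 19.9% of all tested genes. The members' summed level was 9256, 9686 and 8781 CPM in the controls and 13220 and 12600 CPM in KO, so the groups did not overlap. The plot of fold changes by complex shows each tested member.

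**Figure D1:**
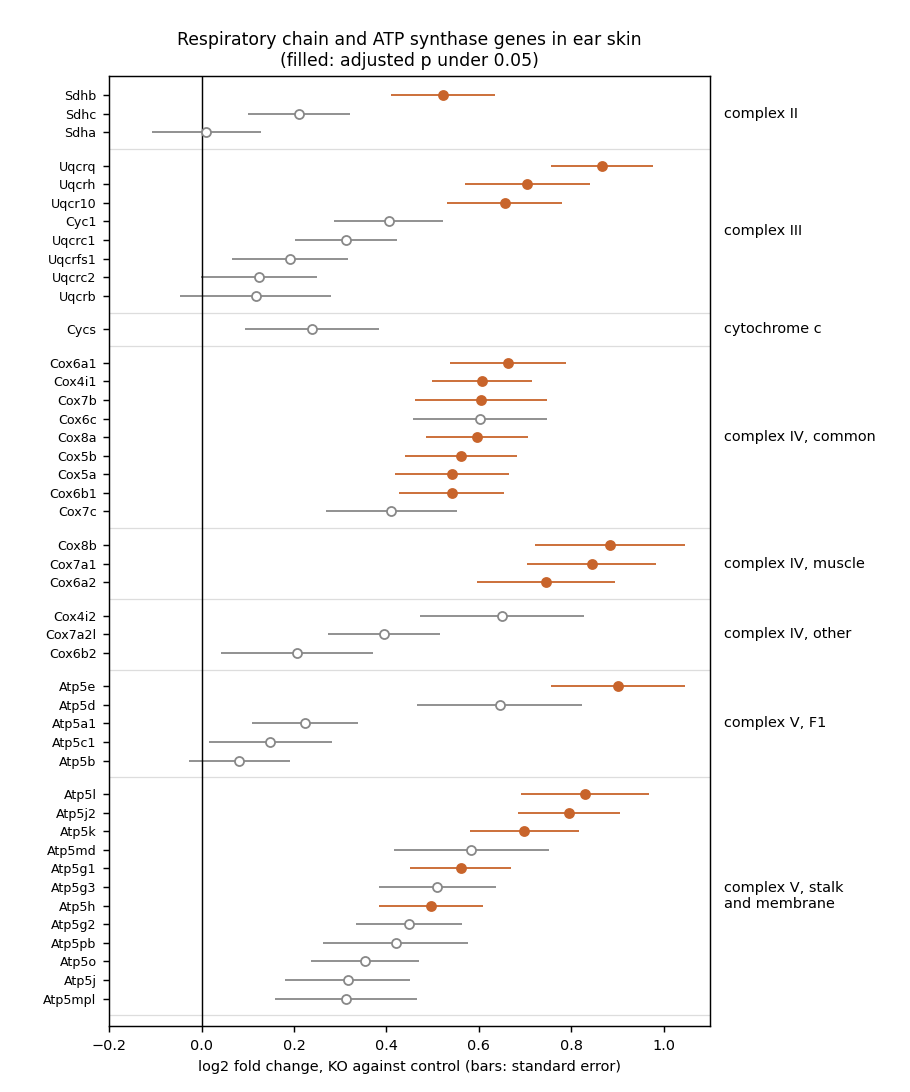
Log2 fold change (KO against control, 3 control and 2 KO libraries) of each of the 44 tested members, grouped by complex; bars show the standard error and filled points mark an adjusted p under 0.05. All 44 points lie above 0, and the filled points are most frequent among complex IV subunits.

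The calls depended on single libraries. Without control replicate 1 or without KO replicate 1, 0 members passed (30 and 24 at an unadjusted p under 0.05), where 0% and 0.00554% of all tested genes were higher. Without KO replicate 2 only Atp5e and Atp5l passed, where 0.667% of all genes were higher. A KO replicate left out leaves a lone KO library that is assumed to vary like the controls. Without control replicate 2, 27 members passed, and without control replicate 3, 29 did, but 4.81% and 10.6% of all genes were then higher, against 2.71% with all libraries. The fold change was positive for 44 of 44 members without control replicate 1 and for 44 of 45 without KO replicate 1, the library with the hair genes. Fold changes also went with transcript length across all genes, and muscle genes were higher in KO, as given after the members. With 4 kinds of length offsets 0 to 10 members passed, and 32 to 38 of the 44 had a positive fold change. With other tests and terms, 29 members were higher with DESeq2 (7.14% of all genes higher, 4.7% lower), 32 with voom (14.9% and 11.8%) and 26 with the replicate number as a block (7.07% and 4.59%).

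Complex IV, cytochrome c oxidase, had the most members that rose: 7 of 9 tested common subunits, with a median log2 fold change of 0.60. They were Cox4i1, Cox5a, Cox5b, Cox6a1, Cox6b1, Cox7b and Cox8a. Cox6c (0.60, adjusted p = 0.0501) and Cox7c (0.41, adjusted p = 0.125) did not pass edgeR's test. For all 9 both KO libraries lay above every control library. This lead of complex IV in number was absent with each of the 4 kinds of length offsets given below. With length and GC, length, principal length, and principal length and GC, 2, 0, 0 and 1 of its 15 tested members passed. Principal length is that of the shortest transcript that the annotation ranks as main. In complex V it was 6, 1, 0 and 2 of 17. The medians of complex IV in these fits were 0.13, 0.17, 0.21 and 0.19, and those of complex V 0.13, 0.18, 0.10 and 0.15. With length and GC offsets the median of the 9 common subunits was 0.07, with Cox4i1 at 0.07, Cox6a1 at 0.03 and Cox8a at 0.01.

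Cox4i1 (Entrez 12857, chromosome 8, 120668225 to 120674209), the common form of subunit IV, through which ATP inhibits the enzyme, had the highest control level per kilobase of transcript of all members. Its level was 636, 619 and 628 CPM in the controls and 974.5 and 937 CPM in KO. The KO libraries lay far above a narrow control range, with a log2 fold change of 0.61 (SE 0.11, edgeR adjusted p = 0.0227). Cox8a (Entrez 12868, chromosome 19, 7215158 to 7217616), the common form of the small membrane subunit VIII, was at 205, 194 and 210 CPM in the controls and 312 and 301 CPM in KO. Cox8a had a log2 fold change of 0.60 (SE 0.11, edgeR adjusted p = 0.0242). The groups of Cox8a did not overlap either, and the rise was of the same size as that of Cox4i1.

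Cox6a1 (Entrez 12861, chromosome 5, 115345652 to 115348958), the common form of subunit VIa, was more variable among the controls, at 401, 354 and 441 CPM. In KO it was at 613 and 650 CPM, above every control, with a log2 fold change of 0.66 (SE 0.13, edgeR adjusted p = 0.0258). Cox6b1 (Entrez 110323, chromosome 7, 30616971 to 30626114), the subunit on the outer face that helps join the enzyme into dimers, was at 171, 164 and 153 CPM in the controls. Its KO levels were 244 and 230 CPM, a log2 fold change of 0.54 (SE 0.11, edgeR adjusted p = 0.0322). Both genes therefore had separate groups.

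The promoters of Cox6a1, Atp5k, Sdha and Cox8b are shown because they differ in letters bound by regulators of respiratory genes (NRF1 and ETS factors such as GABPA) while Sdha, unlike the other 3, did not rise. Each is the 170 bases before the annotated start, from RefSeq (GRCm38.p6), 5′ to 3′ on the gene's minus strand. Capitals mark matches on either strand to the NRF1 letters (GCGCA, any base, then GCGC), the ETS letters CCGGAAG and the E-box letters CAGCTG.
Cox6a1, chr5:115348959-115349128: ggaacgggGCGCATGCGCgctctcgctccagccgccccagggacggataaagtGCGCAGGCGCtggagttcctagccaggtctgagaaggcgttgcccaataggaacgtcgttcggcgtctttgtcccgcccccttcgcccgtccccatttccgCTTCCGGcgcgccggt
Atp5k, chr5:108434400-108434569: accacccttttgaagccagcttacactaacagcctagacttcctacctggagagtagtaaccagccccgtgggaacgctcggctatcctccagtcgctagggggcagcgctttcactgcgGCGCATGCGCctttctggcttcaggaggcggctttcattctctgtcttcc
Sdha, chr13:74350241-74350410: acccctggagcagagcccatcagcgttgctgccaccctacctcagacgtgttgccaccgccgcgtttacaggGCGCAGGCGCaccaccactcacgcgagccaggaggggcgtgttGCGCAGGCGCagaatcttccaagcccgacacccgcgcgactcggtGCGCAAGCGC
Cox8b, chr7:140900447-140900616: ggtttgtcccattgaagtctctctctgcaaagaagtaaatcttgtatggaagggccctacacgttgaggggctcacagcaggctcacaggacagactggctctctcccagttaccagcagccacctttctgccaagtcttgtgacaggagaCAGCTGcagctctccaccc

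A promoter window, 250 bases before to 50 after the start, was at hand for 37 of the 49 members. NRF1 letters were in 10 of them (27%), against 9.48% of the windows of tested genes and 5.19% of all windows. ETS letters were in 13 (35.1%), against 16.8% of tested and 9.93% of all. The E-box letters, bound by muscle regulators among others, were in 2 members (5.41%), Atp5b and Cox8b, against 18.8% of tested genes and 18.3% of all. MEF2 letters (CTA and TAG with any 4 bases between) were in 1, YY1 letters (AAGATGGC) in 3 and a TATA motif (TATAAA) in 4. None of the motifs' letters contain another's, and both strands were searched. Of 33 tested members with a window, 9 of 11 with ETS letters rose and 8 of 22 without. With NRF1 letters 3 of 9 rose and without them 14 of 24. The tested members with ETS letters have principal transcripts of 352 (Atp5md) to 1142 bases (Sdhb). Those without include Sdha (2900) and Atp5b (1916) but also Cox8b (360). How many of all tested genes with or without these letters rose was not computed, and 2.71% of all tested genes rose. These counts are descriptions of letters, with no test.

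The muscle isoforms of complex IV, Cox6a2, Cox7a1 and Cox8b, replace the common subunits VIa, VIIa and VIII in heart and skeletal muscle, and brown fat also uses several of them. All 3 rose, with a median log2 fold change of 0.84. Their control levels were 82.7 (Cox7a1), 85.9 (Cox6a2) and 163 (Cox8b) CPM per kilobase of transcript, whereas the tested common subunits ranged from 145 (Cox5a) to 842 (Cox4i1).

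Cox8b (Entrez 12869, chromosome 7, 140898942 to 140900446), whose promoter above holds an E-box but no NRF1 or ETS letters, was at 71.8, 55.8 and 48.7 CPM in the controls. In KO it was at 117 and 100.1 CPM, a log2 fold change of 0.88 (SE 0.16, edgeR adjusted p = 0.0234). Cox7a1 (Entrez 12865, chromosome 7, 30184171 to 30186030) was at 38.2, 30.8 and 28.4 CPM in the controls and at 57.5 and 59.4 CPM in KO. This was a log2 fold change of 0.84 (SE 0.14, edgeR adjusted p = 0.0203). Both genes had their highest control value in replicate 1, and that value was still below both KO libraries. Cox6a2 (Entrez 12862, chromosome 7, 128205435 to 128206366) was at 62.5, 48.6 and 64.2 CPM in the controls and at 88.1 and 108 CPM in KO. Its log2 fold change was 0.75 (SE 0.15, edgeR adjusted p = 0.0286), and the groups did not overlap.

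**Figure D2:**
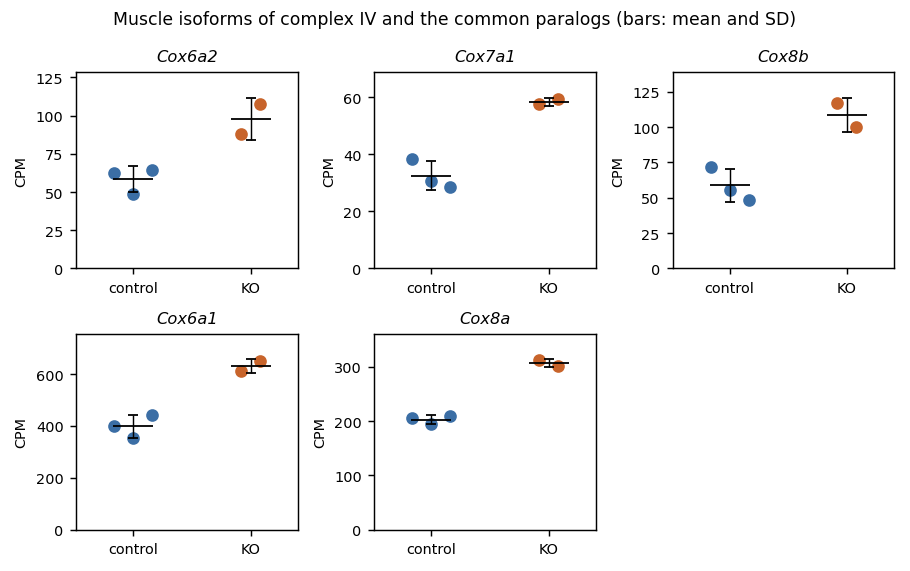
CPM of the 3 muscle isoforms (top) and of the common paralogs Cox6a1 and Cox8a (bottom) in each control and KO library; points are libraries, and bars give the mean and SD of 3 control or 2 KO libraries. In each of the 5 panels both KO points lie above all 3 control points.

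Set against their common paralogs, the muscle isoforms showed no separate groups. Cox6a2 had 15.6%, 13.7% and 14.6% of the CPM of Cox6a1 in the controls and 14.4% and 16.6% in KO. Cox8b had 35.0%, 28.7% and 23.2% of the CPM of Cox8a in the controls and 37.5% and 33.2% in KO. In both pairs a KO value lay inside the control range. These shares are not per length and serve only to compare libraries. No such share is given for Cox7a1, because Cox7a2, its common paralog, had at most 14 counts in a library.

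Other forms of complex IV subunits did not pass. Cox4i2, the form of subunit IV known from lung and from low oxygen, was at 5.28, 6.81 and 7.37 CPM in the controls and at 9.67 and 10.6 CPM in KO. Its log2 fold change was 0.65 (SE 0.18, edgeR adjusted p = 0.0696), about as large as that of Cox6a1 but at a far lower level. Cox7a2l, a factor that joins complexes III and IV into supercomplexes, was at 265, 305 and 267 CPM in the controls and at 388 and 346 CPM in KO (log2 fold change 0.40, SE 0.12, edgeR adjusted p = 0.0943). Cox6b2, the testis form of subunit VIb, was at 6.21, 5.66 and 5.98 CPM in the controls and at 6.36 and 7.38 CPM in KO (0.21, SE 0.17, edgeR adjusted p = 0.501). The groups did not overlap for any of these 3 genes. The Cox6b2 KO values lay only just above the controls, and its direction changed with muscle or length taken into account (-0.27 to -0.33).

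In complex III, the cytochrome bc1 complex, 3 of 8 tested members rose, and all 3 encode small accessory subunits: Uqcrq, Uqcr10 and Uqcrh. The median log2 fold change of the 8 was 0.36. The 3 that rose have short principal transcripts (405, 434 and 547 bases), against 1653 for Uqcrc1 and 1896 for Uqcrc2, while Uqcrb, at 535, did not rise. With principal length offsets the log2 fold changes of Uqcrq, Uqcr10 and Uqcrh were 0.37, 0.16 and 0.24. Those of Uqcrc1, Uqcrc2 and Uqcrb were 0.18, 0.04 and -0.35. Uqcrq (Entrez 22272, chromosome 11, 53427922 to 53430831), the ubiquinone-binding subunit VII, was at 295, 318 and 305.5 CPM in the controls and at 552 and 565 CPM in KO. Its log2 fold change of 0.87 (SE 0.11, edgeR adjusted p = 0.0152) had the smallest p of all members. Both groups were narrow and lay far apart.

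Uqcr10 (Entrez 66152, chromosome 11, 4701968 to 4704344), a small membrane subunit, was at 162, 139.5 and 133 CPM in the controls and at 237 and 219 CPM in KO (log2 fold change 0.66, SE 0.12, edgeR adjusted p = 0.0258). Uqcrh (Entrez 66576, chromosome 4, 116066965 to 116075070), the hinge protein that links cytochrome c1 to cytochrome c, was at 203, 247 and 195.5 CPM in the controls and at 375 and 327 CPM in KO (0.71, SE 0.14, edgeR adjusted p = 0.0258). Neither gene had overlapping groups. Cyc1 (Entrez 66445, chromosome 15, 76343513 to 76346260) encodes cytochrome c1, the haem subunit that hands electrons to cytochrome c. It was at 150.4, 146 and 163 CPM in the controls and at 191 and 215 CPM in KO, a log2 fold change of 0.40 (SE 0.12, edgeR adjusted p = 0.082). Its groups were apart, but it did not pass.

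The other tested complex III members did not pass. Uqcrc1, a core protein, had a log2 fold change of 0.31 and Uqcrfs1, the Rieske iron-sulphur protein, of 0.19. Uqcrc2, the other core protein, was at 140.1, 165 and 134 CPM in the controls and at 162 and 157 CPM in KO, so the groups overlapped. Uqcrb, a ubiquinone-binding subunit, also overlapped, at 110.0, 131 and 85.6 CPM against 120.1 and 116 CPM. Uqcrb has 4 near copies in the genome annotation, and reads could have been shared with them. Cycs, cytochrome c itself, was at 102.5, 111 and 80.0 CPM in the controls and at 117 and 114 CPM in KO (0.24, SE 0.14, edgeR adjusted p = 0.36). Its KO values were above the controls by only a few CPM.

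Complex II, succinate dehydrogenase, had 1 riser among 3 tested members. Sdhb (Entrez 67680, chromosome 4, 140961271 to 140979198), the iron-sulphur subunit, was at 97.1, 96.9 and 94.9 CPM in the controls and at 131 and 146 CPM in KO. Sdhb had a log2 fold change of 0.52 (SE 0.11, edgeR adjusted p = 0.0341). The 3 controls were nearly the same and both KO libraries lay well above them. Sdhc (Entrez 66052, chromosome 1, 171129157 to 171150640), a membrane anchor, was at 83.7, 83.5 and 80.8 CPM against 93.2 and 98.2 CPM (0.21, SE 0.11, edgeR adjusted p = 0.291). Sdha, the flavoprotein that oxidizes succinate, was at 177.5, 176 and 155 CPM in the controls and at 166 and 175 CPM in KO. Its KO libraries lay inside the control range, with a log2 fold change of 0.01 (SE 0.12, edgeR adjusted p = 0.973), and its promoter shown above holds 3 NRF1 matches. Sdhb and Sdha, which together form the soluble catalytic head, thus had different fold changes. This difference was not tested. Their principal transcripts have 1142 and 2900 bases. With length and GC, length, principal length, and principal length and GC offsets, Sdhb had 0.20, 0.21, 0.26 and 0.22 and passed in none. Sdha had 0.02, -0.008, 0.05 and 0.09. Sdhc passed with principal length and GC offsets (0.31, edgeR adjusted p = 0.0425).

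In complex V, 6 of 17 tested members rose, with a median log2 fold change of 0.50. In the F1 part, the catalytic head, it was 1 of 5, the epsilon subunit gene Atp5e. In the stalk and membrane part it was 5 of 12: Atp5j2, Atp5l, Atp5k, Atp5g1 and Atp5h, which encode subunits f, g, e, c and d. Subunits e and g are known for joining ATP synthases into dimers that shape the cristae, and subunit c forms the rotating ring.

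Atp5e (Entrez 67126, chromosome 2, 174461075 to 174464101) had the largest fold change of all members, 0.90 on the log2 scale (SE 0.15, edgeR adjusted p = 0.0195). It was at 308, 342 and 277 CPM in the controls and at 656 and 499.5 CPM in KO, with KO replicate 1 far above KO replicate 2 and both above the controls. Atp5j2 (Entrez 57423, chromosome 5, 145183704 to 145191541) was at 195, 201.5 and 190 CPM in the controls and at 349.5 and 329 CPM in KO. It had a log2 fold change of 0.80 (SE 0.11, edgeR adjusted p = 0.0159), with little spread inside either group.

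Atp5l (Entrez 27425, chromosome 9, 44913248 to 44920742) was at 264, 324 and 268.5 CPM in the controls and at 560 and 456 CPM in KO (log2 fold change 0.83, SE 0.14, edgeR adjusted p = 0.0203). Atp5l has 13 near copies in the annotation, so its reads could also have been shared. Atp5k (Entrez 11958, chromosome 5, 108433246 to 108434399), with an NRF1 match 50 bases before its start, was at 126.5, 112 and 113 CPM in the controls. It was at 201 and 179 CPM in KO (log2 fold change 0.70, SE 0.12, edgeR adjusted p = 0.0203). Both genes had groups that did not overlap.

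The large catalytic subunits of complex V did not pass. Atp5b, the beta subunit that carries the catalytic sites, was at 855, 852 and 862 CPM in the controls and at 880 and 932 CPM in KO (0.08, SE 0.11, edgeR adjusted p = 0.711). Its control values were almost equal, and its KO values were only a little above them. Atp5a1, the alpha subunit, was at 821, 896 and 788 CPM against 985 and 967 CPM (0.22, edgeR adjusted p = 0.285). The principal transcripts of Atp5b (1916 bases) and Atp5a1 (2471) are longer than that of Atp5e (421). With principal length offsets the log2 fold changes of Atp5b, Atp5a1 and Atp5e were -3.1e-05, 0.22 and 0.40. Atp5c1, the gamma subunit that forms the central stalk, had 0.15 and overlapping groups. Atp5d, the delta subunit, had a log2 fold change of 0.64 but a wide control range, 63.0 to 95.9 CPM (SE 0.18, edgeR adjusted p = 0.0729). In the stalk and membrane part, Atp5g2, Atp5g3, Atp5md, Atp5o, Atp5pb, Atp5j and Atp5mpl had log2 fold changes of 0.31 to 0.58 and did not pass, with groups that did not overlap.

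**Figure D3:**
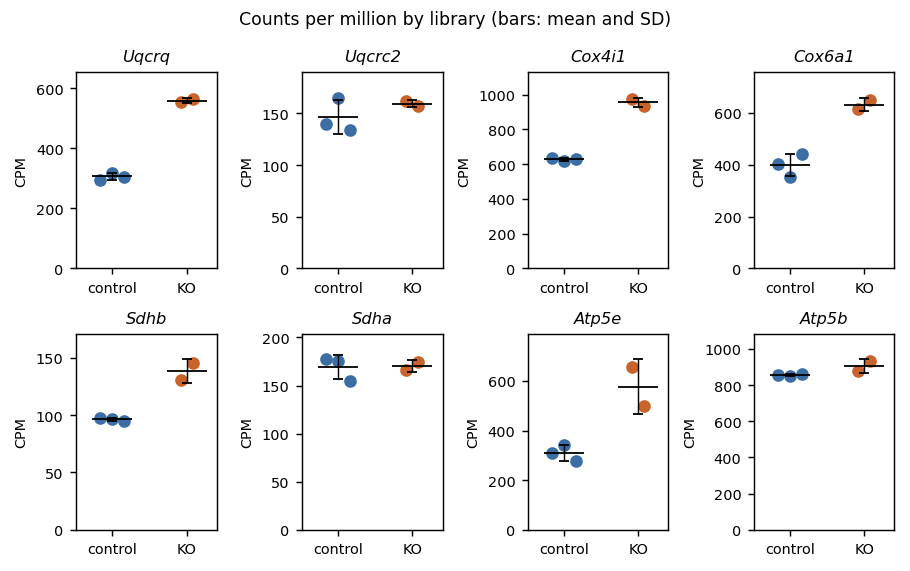
CPM of 8 members in each control and KO library, chosen after the values were seen to set a member that rose beside one of its complex that did not where there is one; points are libraries and bars give the mean and SD (3 control, 2 KO). Uqcrq, Cox4i1, Cox6a1, Sdhb and Atp5e have separate groups, Uqcrc2 and Sdha overlap, and Atp5b differs by little.

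With library size scaling alone, without normalization factors, the median of all genes moved to -0.16, and Sdha, Atp5b, Uqcrc2 and Uqcrb were then at or below 0 while the other 40 tested members were above it. That scaling gave 268 genes higher (1.53%) and 974 lower (5.57%) in all, against 474 and 183 with normalization factors.

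The level of the members differed widely per kilobase of transcript. In the controls Cox4i1 stood highest, at 842 ± 11.5 CPM per kilobase (SD, n = 3), above Uqcrq at 757 ± 28.4 (SD, n = 3). Uqcrq, Atp5e (734 ± 76.7) and Cox6a1 (698 ± 76.6) did not differ beyond their SDs. Among the tested members the lowest were Cox4i2 at 8.92 ± 1.49 and Cox6b2 at 12.8 ± 0.60, both tissue forms, followed by Sdhc at 26.1 ± 0.51 and Cycs at 31.3 ± 5.07. Subunits that sit in 1 complex in equal numbers thus had unequal read densities: Sdha was at 58.4 and Sdhb at 84.3 CPM per kilobase.

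The 5 members not tested had almost no reads. Counts were 5, 2 and 1 in the controls and 0 in both KO libraries for Sdhd, the other membrane anchor of complex II. Uqcr11, a small complex III subunit, had 0 counts in all 5 libraries, which allows up to 0.0379 to 0.0927 CPM by library. Cox7a2, the common form of subunit VIIa, had 6, 14 and 5 counts in the controls and 6 and 3 in KO. These 3 are subunits that respiring cells in general use, so only the listed values are given and no level is drawn from them. In the GENCODE annotation none of the 3 shared exon bases with another gene or had a near copy (at least 90% identity over at least 50% of the transcript). Cox7b2 and Cox8c, both testis forms, had at most 6 and 1 counts.

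Some named members share sequence with other annotated genes, and the sources used here do not state whether reads were counted by strand. Opposite-strand genes overlap the exons of Cox4i1 (Emc8, 9.94% of the member's exon bases), Cox6a2 (Itgad, 10.3%), Uqcrc2 (Pdzd9, 19.7%) and Atp5j (Gabpa, 12.7%), among others. In all, 13 members had 41 near copies, of which 3 were rows of the table. Atp5g1, Atp5h, Atp5k, Atp5l, Cox5a, Cox6a1 and Uqcrq are the members that rose among these 13, and their values are uncertain to that extent.

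Skeletal muscle genes moved with the members. Of 20 muscle markers 8 rose and 0 fell (Mylpf, Tnnc2, Tnni2, Pvalb, Myl2, Myl3, Tnnt1 and Mb), with a median log2 fold change of 0.61. Their summed level was 6729 to 7125 CPM in the controls and 8781 and 9741 CPM in KO, with no overlap. The markers are also short, with a median principal transcript of 945 bases against 2708 for all tested genes. With the 4 kinds of length offsets given below, 0 to 5 of the 20 passed, where 0.0515% to 2.59% of all genes were higher. The markers' median was then 0.25 to 0.33. Mb, which encodes the oxygen store myoglobin, was at 190.5, 187 and 191 CPM against 340.5 and 360 CPM (0.89 on the log2 scale, SE 0.11, edgeR adjusted p = 0.0152). Of the 4 myosin heavy chains in the list, Myh1 had -0.09, Myh4 0.09, Myh2 0.21 and the slow form Myh7 0.79 (edgeR adjusted p = 0.172), and none of the 4 passed. The order of the KO libraries differed: the muscle markers were highest in KO replicate 2, whereas the median deviation of the members from the control mean was 0.55 in KO replicate 1 and 0.49 in KO replicate 2. With the muscle markers' mean level per library as a covariate, 0 of 44 members passed (smallest adjusted p 0.0501, 19 at an unadjusted p under 0.05) and 0.0572% of all tested genes were higher and 0.0687% lower. In that fit the members' median log2 fold change was 0.90, above the 0.53 without the covariate, while their median standard error was 0.45 in place of 0.13. The fold change was positive for 39 of 44, and the 5 below 0 were Atp5d (-0.61), Cox6a2 (-0.36), Cox6b2 (-0.30), Cyc1 (-0.15) and Atp5b (-0.10). The covariate differs between the groups, so that fit cannot tell muscle content and genotype apart. The part of muscle in the members' values was not tested.

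Marker genes of fat cells and keratinocytes gave these values. Adipocyte markers, 8 genes, summed to 814 to 1192 CPM in the controls and to 1411 and 1243 CPM in KO, and 1 of 8 rose, Cfd, which encodes adipsin. Brown fat markers, 4 genes, summed to 81.0 to 107 CPM and to 100.4 and 100.3 CPM, and 0 of 4 passed by edgeR (0 at an unadjusted p under 0.05). Ucp1, which defines brown fat, had 6 to 21 counts in a library. Keratinocyte markers summed to 37029 to 46566 CPM in the controls and to 54614 and 51291 CPM in KO. By edgeR 0 of 9 passed (3 at an unadjusted p under 0.05), and Lor, the cornified envelope protein loricrin, made up most of the gap (9650 to 15130 against 23490 and 17620 CPM, adjusted p = 0.0506). The part of these cells in the members' rise was not tested.

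The mitochondrially encoded partners of these complexes did not pass. CYTB, COX1, COX2, COX3, ATP6 and ATP8 encode the core of complexes III and IV and the proton channel of complex V, and 0 of 6 passed by edgeR (0 at an unadjusted p under 0.05, 0 by DESeq2, 3 higher by voom). Their median log2 fold change was 0.19, and their summed level was 9879 to 14128 CPM in the controls and 11038 and 10462 CPM in KO. The groups overlapped, unlike those of the nuclear members. Most of this sum came from COX1 and CYTB, with control means of 7747 and 3131 CPM. COX2, COX3, ATP6 and ATP8 had control means of 226, 153, 178 and 7.97 CPM, so the sum says little about them. COX1, the catalytic subunit of complex IV, was at 6548, 9685 and 7008 CPM against 7209 and 6935 CPM.

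Among assembly factors of complexes II, III and V, 4 of 18 rose and 0 fell. Fmc1, which helps assemble the F1 part, was at 30.6, 30.8 and 29.6 CPM in the controls and at 57.4 and 54.2 CPM in KO (log2 fold change 0.88, SE 0.11, edgeR adjusted p = 0.0152). Uqcc2, needed for the synthesis and assembly of cytochrome b, was at 90.4, 87.6 and 84.6 CPM against 156 and 134 CPM (0.73, SE 0.12, edgeR adjusted p = 0.0195). Sdhaf1, which brings iron-sulphur clusters to Sdhb, was at 36.7, 41.9 and 44.0 CPM against 61.2 and 67.4 CPM (0.65, SE 0.12, edgeR adjusted p = 0.0258). The fourth was Uqcc3 (0.51), a complex III factor. All 4 had separate groups. Atpif1, the inhibitor of ATP synthase, whose symbol the rule does not match, also rose, from 196, 236 and 223 CPM to 391.5 and 354 CPM (0.77, SE 0.12, edgeR adjusted p = 0.0195). The principal transcripts of Fmc1 (479 bases), Uqcc2 (500), Atpif1 (539) and Uqcc3 (821) are short, while that of Sdhaf1 has 2490. With length and GC offsets Fmc1 (0.39) and Sdhaf1 (0.60) passed, but Uqcc2 (0.22), Uqcc3 (0.05) and Atpif1 (0.36) did not. With length offsets and with principal length offsets 0 of the 18 passed, where 0.0916% and 0.0515% of all genes were higher. With principal length and GC offsets 2 of the 18 passed, Sdhaf1 (0.67) and Fmc1 (0.36), where 2.47% of all genes were higher.

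Other mitochondrial genes did not pass by edgeR without offsets. For citric acid cycle enzymes it was 0 of 17 by edgeR (1 at an unadjusted p under 0.05, 0 by DESeq2, 3 higher and 2 lower by voom), with a median of 0.10. Citrate synthase, Cs, a common marker of mitochondrial content, was at 225, 238 and 232 CPM in the controls and at 229 and 234 CPM in KO. Its KO libraries lay inside the control range. For regulators of mitochondrial biogenesis it was 0 of 14 (2 unadjusted, 1 higher and 1 lower by DESeq2 and by voom), with a median of -0.13. Ppargc1a, the coactivator of respiratory genes, was at 3.09 to 6.49 CPM in the controls and at 4.86 and 4.23 CPM in KO, so its groups overlapped. For membrane carriers and import proteins it was 0 of 12 (4 unadjusted, 2 higher by DESeq2, 4 higher by voom), with a median of 0.17. With length offsets and with principal length offsets 0 genes of these lists passed. With length and GC offsets 1 of 12 carriers was higher (Tomm20), against 2.59% of all genes. With principal length and GC offsets it was 2 of 12 (Tomm20 and Slc25a4), against 2.47%. In that fit 1 of 17 citric acid cycle enzymes was higher (Fh1) and 1 of 14 regulators lower (Gabpa). These lists differ from the members in transcript length: the median principal transcript was 680 bases for the members, 2066 for assembly factors, 2544 for citric acid cycle enzymes, 3572 for regulators and 1684 for carriers, against 2708 for all tested genes.

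Transcript length moved with fold change over all genes. Spearman's rho between log2 fold change and the longest annotated transcript was -0.55 across tested genes, a description over genes that share the same 5 libraries. For single libraries, each gene's deviation from its mean over all 5 libraries was set against length. The controls gave rho values of 0.45, 0.30 and 0.19, whereas KO gave -0.46 and -0.45. Since that mean includes the KO libraries, the positive control values are tied to the negative KO values and show no separate trend within the controls. Among the 44 tested members rho was -0.57 with the principal transcript (the shortest one that the annotation ranks as main) and -0.28 with the longest. Short genes were therefore higher and long genes lower in KO, and most members are short.

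Members were next set beside all genes of their length class. Under 500 bases of principal transcript, 7 of 11 members rose against 26.2% of 202 genes, with medians of 0.66 and 0.53. From 500 to 1000 bases 11 of 19 rose against 19.9% of 1181 genes, with medians of 0.60 and 0.40. From 1000 to 2000 bases 2 of 10 rose against 3.28% of 3808 genes, with medians of 0.35 and 0.17. From 2000 to 4000 bases 0 of 4 rose against 0.425% of 6359 genes, with medians of 0.22 and -0.03. In each class the members' median lay above that of all genes, by 0.13 to 0.25 on the log2 scale, and so by less than the 0.55 between the members and all genes without regard to length.

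**Figure D4:**
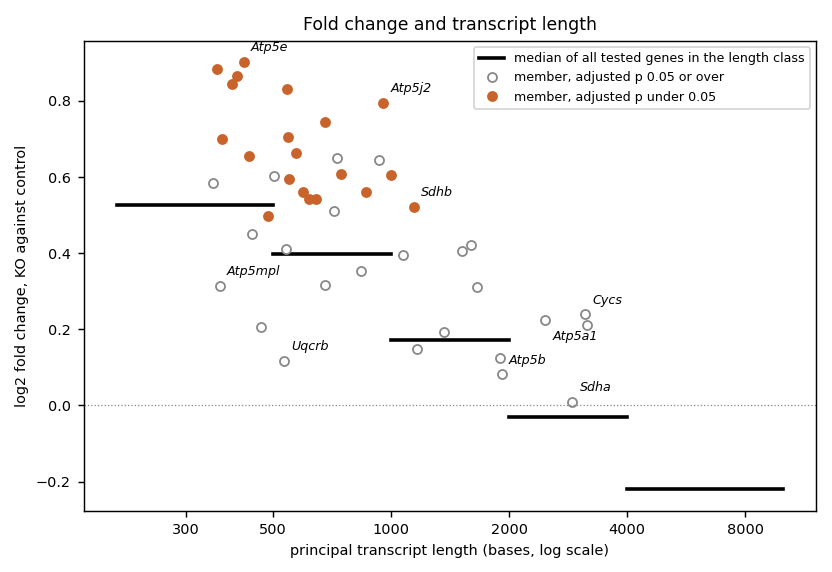
Log2 fold change of each tested member against the length of its principal transcript in bases (log axis); filled points have an adjusted p under 0.05, and black lines give the median of all tested genes in each length class, with arbitrary outer ends for the shortest and longest class. Member points fall from left to right, as the lines do, and most lie above the line of their class.

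Offsets that remove each library's trend on transcript length or GC content lowered the members' median, though not every member's value. With length and GC offsets 10 members passed, where 2.59% of all genes were higher, and the median was 0.13. In that fit 36 of 44 members were positive, and 8 had a larger fold change than without offsets, among them Atp5l (1.14), Atp5g1 (0.73) and Atp5pb (0.50). With length alone 32 of 44 were positive, with principal length 34, and with principal length and GC content 38. Uqcrb (-0.25, -0.40, -0.35 and -0.20) and Atp5mpl (-0.22, -0.20, -0.20 and -0.06) were below 0 in all 4 of these fits. So were Cox6b2 (-0.33, -0.30, -0.27 and -0.32), Atp5g2 (-0.18, -0.03, -0.04 and -0.10) and Atp5c1 (-0.007, -0.04, -0.11 and -0.03). Of the 10 members that passed with length and GC offsets, 6 were among the 20 named above. With length alone 1 passed, Atp5l, where 0.0916% of all genes were higher. Principal transcript length, an alternative chosen after seeing the data, gave 0 (smallest adjusted p 0.134, 7 at an unadjusted p under 0.05; 0.0515% of all genes were higher). With GC content added it gave 5 (Atp5j2, Atp5l, Cox7b, Cycs and Sdhc), where 2.47% of all genes were higher and 1.32% lower. The medians of these last fits were 0.17 and 0.17. Atp5l had a log2 fold change of 0.44 and Atp5j2 of 0.52 in the last fit, where the median of all genes was 0.00. The choice of transcript mattered: of the 10 members that passed with length and GC offsets, 9 had a longest transcript more than 1.5 times the principal one, against 5 of the other 34. Genotype and the length trend cannot be told apart by group, since both KO libraries have the trend in the same direction.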

How the data were processed

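Ear skin RNA from 3 control and 2 KO libraries was sequenced. The deposited values are whole-number read counts per Entrez gene, not normalized. FastQC, HISAT2 2.0.4, DESeq2 1.16.1 and the build GRCm38 (mm10) are named, per the submitters' processing notes; the sources used here do not give the counting program, the strand setting or the handling of shared reads.

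Symbols, positions and promoters came from RefSeq GRCm38.p6 (25275 of 27179 identifiers matched) and transcripts from GENCODE (21572 genes; 90.5% of tested genes). After filterByExpr, 17472 genes were scaled with TMM (factors 0.936 to 1.07) and compared with the robust quasi-likelihood test of edgeR 4.0.16 (Benjamini-Hochberg over all genes, threshold 0.05); CPM uses the scaled library sizes. A single read was worth 0.0126 to 0.0309 CPM, and the biological coefficient of variation was 0.154. Alternatives were other scalings and filters, DESeq2 1.42.0, limma 3.58.1 voom, a muscle covariate, offsets smoothed with mgcv 1.9.3, a replicate block and leaving out each library. Chi-square per degree of freedom within groups was 22.9 to 76.3, so no library was a duplicate. The fit was checked on simulated data.

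The members and lists were chosen with earlier results of these data known. Full values are given for the 4 members of complexes III, IV (common forms) and V with the smallest p, 2 of complex II, Cycs, the muscle isoforms and the other tested tissue isoforms (21 genes), and for up to 3 genes that passed in each pathway list; other genes given with values were chosen after these were seen. Of the genes listed, Uqcc4, Uqcc5, Uqcc6 and Hbb-bt were not matched.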

Additional observations from a re-analysis of the deposited data

How the results depend on the processing

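The count of 20 members higher in KO was within 1.5 times under DESeq2 (29), no count filter (26) and 4 other settings, and 0 members were lower under any setting. It was 13 with library size scaling alone, 32 with voom, 0 with the muscle covariate, 10 with length and GC offsets, 1 with length offsets, 0 with principal length and 5 with principal length and GC offsets; leaving out a library gave 0 to 29. With the replicate number as a block it was 26. Deviations of same-numbered libraries from their group means correlated at only 0.016 and 0.064. The deviations of the 2 KO libraries mirror each other, so these values cannot decide whether the numbers pair the libraries.

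All genes higher and lower (474 and 183) became 268 and 974 with library size scaling, 1068 and 704 with DESeq2, 2605 and 2057 with voom, 1235 and 802 with the block, 10 and 12 with the muscle covariate, 16 and 5 with length offsets, and 9 and 5 with principal length. Without a count filter 355 were lower and with length and GC offsets 115. Leaving out a library gave 0 to 1842 higher and 0 to 1435 lower.

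The members' median of 0.53 was 0.38 with library size scaling, 0.90 with the muscle covariate, and 0.13, 0.18, 0.17 and 0.17 with the offsets (length and GC, length, principal length, principal length and GC). In the same order, complex III had 0.21, 0.80, 0.12, 0.18, 0.17 and 0.13, complex IV 0.45, 0.85, 0.13, 0.17, 0.21 and 0.19, and complex V 0.35, 0.91, 0.13, 0.18, 0.10 and 0.15. Complex II had 0.06 with library size scaling. Of 44 tested members, 40 were positive with library size scaling, 39 with the muscle covariate and 36, 32, 34 and 38 with the offsets. With the muscle covariate Atp5d turned to -0.61, Cox6a2 to -0.36, Cox6b2 to -0.30, Cyc1 to -0.15 and Atp5b to -0.10. Of the 21 genes set in advance for full values, Cox6b2 was the 1 that turned with the offsets, to -0.33, -0.30, -0.27 and -0.32. Other members turned as well. For example, Atp5b had -0.06 with length and GC, -0.07 with length and -3.1e-05 with principal length, and Sdha had -0.008 with length. The cause was not tested. With 2 KO libraries, small changes can be missed at this depth.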
